A study of Mus musculus with 6 samples.

Results

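The nuclear genes of oxidative phosphorylation were followed through spermatogenesis in single-cell RNA-seq libraries of mouse testis. Members were chosen by gene symbol alone, as the Nduf, Sdh, Uqcr, Cox5, Cox6, Cox7 and Atp5 families apart from 4 symbols that the rule leaves out, and 85 of the 32285 features of the deposited matrices met it. By name they comprised 39 genes of complex I, 8 assembly factors of complex I, 4 genes of complex II, 8 of complex III, 9 of complex IV and 17 of complex V. The 13 mRNAs encoded by mitochondrial DNA were taken as the other side of a nuclear to mitochondrial ratio. Testes came from C57BL/6 wildtype mice (C57BL/6N in the study's methods) of 8 weeks that had spent the last 2 weeks on a diet rich in fat (HFD) or on its counterpart low in fat (LFD), with 3 libraries per diet. No gene was altered in any group. Per the study's methods 3 mice per diet were used, and p-values measure the spread between these libraries.

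Oxidative phosphorylation runs in the inner mitochondrial membrane, where complexes I to IV pass electrons from NADH and succinate to oxygen and complex V, the ATP synthase, makes ATP from the resulting proton gradient. Most subunits are encoded in the nucleus and imported, whereas a small core set of subunits of complexes I, III, IV and V is encoded by the mitochondrial genome, and complex II is wholly nuclear. In the testis, spermatocytes and round spermatids are supplied with lactate by Sertoli cells, several subunits are known to have a testis gene beside the somatic one, and transcription of the X chromosome is silenced in pachytene spermatocytes.

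The members lay on 19 chromosomes, and 2 of them, Ndufa1 and Ndufb11, lay on the X chromosome. NRF1 and YY1 are transcription factors known for binding many promoters of nuclear genes for mitochondrial proteins, so the members' promoters were searched on both strands for GCGCATGC, a core of the NRF1 motif, and AAGATGGC, a core of the YY1 motif. RefSeq promoter windows of 300 bases (GRCm38.p6, 250 before and 50 from the start site on) were matched for 69 of the 85 members. The NRF1 letters were in the windows of 12 members (17.4%) and of 3.9% of 17492 protein-coding genes, and the YY1 letters in those of 10 members (14.5%) and of 3.6% of the same genes. For GGGCGG, a core of the SP1 motif, the shares were 46.4% of members and 49.2% of genes. For CCGGAAGT, an ETS core, they were 5.8% and 5.7%, and for TGACGTCA, the cAMP response element, 5.8% and 2.5%. These are counts of letters and not of bound sites.

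The 160 bases around the start site (130 before, 30 from it on) are shown for some of the members that carry the NRF1 or YY1 letters and for those that moved most at the pachytene stage, on the strand of the gene, with these letters in capitals. Ndufc1, the complex I subunit gene with the highest mean level over the germ cell gates, has its window at chr3:51408926-51409085 on the minus strand, and the assembly factor gene Ndufaf8 at chr11:120098804-120098963 on the plus strand. Both carried the YY1 letters.
Ndufc1: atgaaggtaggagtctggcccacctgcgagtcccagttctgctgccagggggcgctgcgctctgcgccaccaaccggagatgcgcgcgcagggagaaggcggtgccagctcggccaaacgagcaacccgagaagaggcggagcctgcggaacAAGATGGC
Ndufaf8: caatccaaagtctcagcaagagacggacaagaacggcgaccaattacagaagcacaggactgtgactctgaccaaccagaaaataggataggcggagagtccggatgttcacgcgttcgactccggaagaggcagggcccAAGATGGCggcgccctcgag

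The NRF1 letters were carried by Sdhb, the iron-sulfur subunit gene of complex II, at chr4:140961141-140961300 on the plus strand, by the assembly factor gene Ndufaf4 at chr4:24897953-24898112 on the plus strand and by the complex I gene Ndufa11 at chr17:56717632-56717791 on the plus strand.
Sdhb: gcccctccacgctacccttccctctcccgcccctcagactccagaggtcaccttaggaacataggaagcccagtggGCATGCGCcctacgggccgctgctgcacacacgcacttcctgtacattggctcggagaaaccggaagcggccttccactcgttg
Ndufaf4: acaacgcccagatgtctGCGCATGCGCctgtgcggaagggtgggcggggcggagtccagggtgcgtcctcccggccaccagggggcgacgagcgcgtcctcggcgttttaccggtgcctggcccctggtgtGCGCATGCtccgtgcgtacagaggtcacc
Ndufa11: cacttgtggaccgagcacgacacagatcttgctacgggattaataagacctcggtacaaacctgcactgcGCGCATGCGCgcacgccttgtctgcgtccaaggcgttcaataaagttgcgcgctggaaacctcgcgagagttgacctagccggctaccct

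The 3 members with the largest fall and the member with the largest rise at the pachytene stage are shown beside them, and neither the NRF1 nor the YY1 letters were in their windows. They are the X-linked Ndufb11 at chrX:20617590-20617749 on the minus strand and Ndufa1 at chrX:37191209-37191368 on the minus strand, Ndufa4 at chr6:11907421-11907580 on the minus strand and the assembly factor gene Ndufaf3 at chr9:108567407-108567566 on the minus strand.
Ndufb11: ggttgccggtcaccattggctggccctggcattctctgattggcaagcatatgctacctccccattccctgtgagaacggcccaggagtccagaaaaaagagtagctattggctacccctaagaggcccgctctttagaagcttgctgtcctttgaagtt
Ndufa1: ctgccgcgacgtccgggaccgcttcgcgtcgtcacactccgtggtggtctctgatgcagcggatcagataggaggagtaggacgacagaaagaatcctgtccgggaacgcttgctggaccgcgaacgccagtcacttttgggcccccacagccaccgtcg
Ndufa4: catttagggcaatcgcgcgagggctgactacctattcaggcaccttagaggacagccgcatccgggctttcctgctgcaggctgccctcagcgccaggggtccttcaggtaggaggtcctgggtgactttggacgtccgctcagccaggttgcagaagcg
Ndufaf3: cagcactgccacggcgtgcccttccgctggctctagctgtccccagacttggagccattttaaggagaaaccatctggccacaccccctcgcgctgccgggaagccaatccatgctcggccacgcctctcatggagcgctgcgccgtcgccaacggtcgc

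The 6 libraries held 48939 barcodes and 429495465 UMIs (unique molecular identifiers, each standing for 1 captured mRNA molecule), between 39196921 and 95845514 per library. Barcodes were sorted into marker gates by the share of their UMIs that fell on marker genes, and each gate is called by the cell type whose markers set it. The germ cell gates held 517 barcodes of spermatogonia, 888 of early meiotic, 1457 of pachytene and 1432 of late spermatocytes, 543 of early and 2890 of later round spermatids and 2977 of elongating spermatids, and 37313 barcodes (76.2%) were in no gate. Of the markers used, all had their highest level in their own gate for the early meiotic, early round, later round and elongating gates. This held for 9 of 11 in spermatogonia, 2 of 3 in the pachytene and 4 of 8 in the late spermatocyte gate. Some planned markers had been left out after their levels by gate were seen, so these counts favour the gates. They were Hspa2, Clgn, Spata16, Tbpl1, Adam2 and Sycp1 of the pachytene list. The other lists lost Dmrtb1 (spermatogonia), Smc1b (early meiotic) and Kif2c (late spermatocytes). X-linked genes were lower in pachytene than in early meiotic spermatocytes for 353 of 358 tested (98.6%), against 40.2% of autosomal genes. Both replicate 1 libraries stood apart, with haemoglobin mRNA at 0 and 0.0209 CPM where the other 4 had 30.5 to 99.7. The names of the deposited files put every library in the opposite diet to its label. The labels were followed, and with the file names every diet difference would change sign. In all, 569 barcodes carried 1 of 284 sequences that occurred in more than 1 library, and the upper share of free RNA in the germ cell gates before elongating spermatids, taken from the elongating spermatid mRNA Prm1, was 4.84 to 26.1%. It was reckoned as if all Prm1 were free, against the barcodes in no gate with under 3000 UMIs. Those barcodes may hold cells, so whether the share is an upper limit was not tested. Barcodes entered these germ cell gates only with under 200 UMIs per 10000 on the elongating markers, Prm1 among them. The gates themselves thus limit the share.

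The complexes were all expressed in the germ cell gates, and their courses differed. Levels are given as UMIs scaled to 1000000 UMIs of the gate (CPM) and were not divided by gene length, since each molecule gives 1 tag at its 3′ end. Summed over all members, the level was 26856 ± 2402 CPM in spermatogonia (SD, n = 6), 27718 ± 2644 in pachytene spermatocytes, 20931 ± 1150 in later round spermatids and 8554 ± 512 in elongating spermatids. The difference between pachytene spermatocytes and spermatogonia, taken within libraries, was 0.04 ± 0.06 on the log2 scale. Sums over members get no test, and their spread over the 6 libraries is given in its place.

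Complexes V and II had high levels early, complexes I and III their highest mean in pachytene spermatocytes and complex IV in early round spermatids. Complex V had 7423 to 9506 CPM (median 8094) in spermatogonia and 4101 to 4727 CPM (median 4616) in later round spermatids, without overlap and with a mean log2 difference of -0.87 ± 0.08 within libraries. Complex I had 8754 to 11399 CPM (median 10062) in spermatogonia, 8026 to 10888 CPM (median 9288) in early meiotic spermatocytes and 10041 to 12624 CPM (median 11405) in pachytene spermatocytes. These ranges overlapped, while within a library complex I was higher in pachytene than in early meiotic spermatocytes in 6 of 6 libraries, by 0.30 ± 0.11. Complex III was 0.53 ± 0.14 higher at the same step, in 6 of 6 libraries, and reached 2966 to 3947 CPM. Complex IV had 5446 ± 348 CPM in early round spermatids, 0.08 ± 0.02 above late spermatocytes. This sum holds only the Cox5, Cox6 and Cox7 members, so it does not give the course of the whole complex. Of the complex IV subunit genes outside it, Cox8c had a mean of 3456 CPM in pachytene and 2762 in early round spermatids. Cox4i1 had 1624 and 1102. Complex II, which feeds electrons from succinate, had 513 ± 24.6, 529 ± 51.4 and 507 ± 41.2 CPM in the first 3 gates, then 210 ± 16.1 in later round and 58.5 ± 6.71 in elongating spermatids. The summed assembly factors of complex I had 574 ± 54.9 CPM in spermatogonia and 1244 ± 155 in pachytene spermatocytes, a difference of 1.11 ± 0.17 within libraries with no overlap. Most of the pachytene sum was 1 gene, Ndufaf3, with a mean of 762 CPM there and 87.6 in its lowest gate. Of the 8 factors, 2 were highest in pachytene spermatocytes, 3 in early meiotic spermatocytes, 2 in spermatogonia and 1 in later round spermatids.

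**Figure D1:**
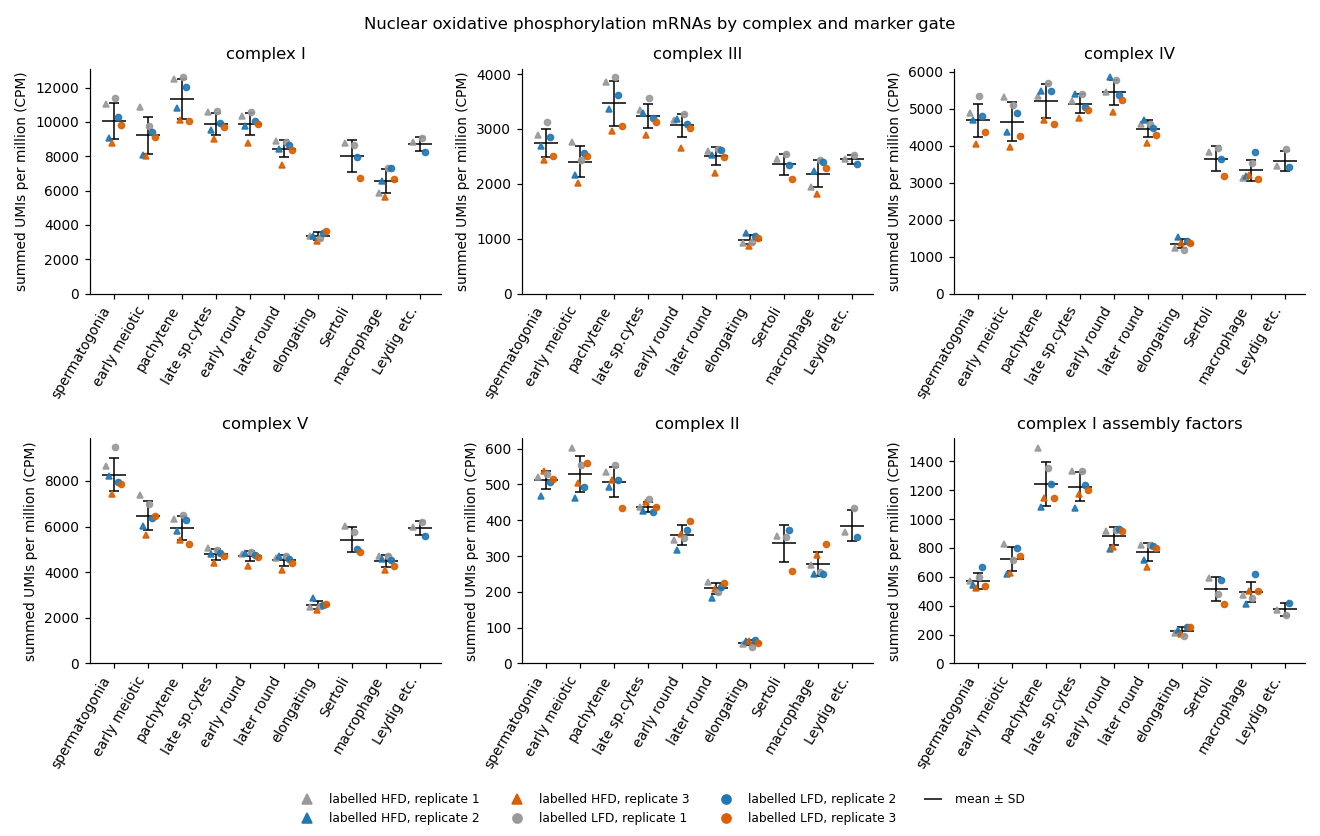
Summed CPM of the members of each complex (y axes from 0) by marker gate, with 1 point per library and black bars for mean ± SD. Complex V descends from a mean of 8268 CPM in spermatogonia to 4531 in later round spermatids, while complex I has its highest mean, 11346 CPM, in pachytene spermatocytes.

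As a share of all member UMIs, complex V went from 30.8 ± 0.903% in spermatogonia to 19.3 ± 0.257% in early round spermatids, complex IV from 17.5 ± 0.486% to 22.4 ± 0.721% and complex I from 37.4 ± 1.25% to 40.6 ± 0.687%. The HFD replicate 3 library had the lowest sums of complexes I, III, IV and V in both round spermatid gates.

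The single members were spread more widely than the sums. Over the 6 germ cell gates before elongating spermatids, the highest and the lowest gate mean of a member differed by a median of 1.35 on the log2(CPM + 1) scale among the 83 members with a mean of at least 5 CPM. For 27 of the 83 the range was under 1, and for 24 it was over 2. The highest gate was spermatogonia for 30 members, pachytene spermatocytes for 21, early meiotic spermatocytes for 15 and early round spermatids for 13. Of the 17 complex V members 13 were highest in spermatogonia, whereas 15 of the 39 complex I members were highest in pachytene spermatocytes.

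**Figure D2:**
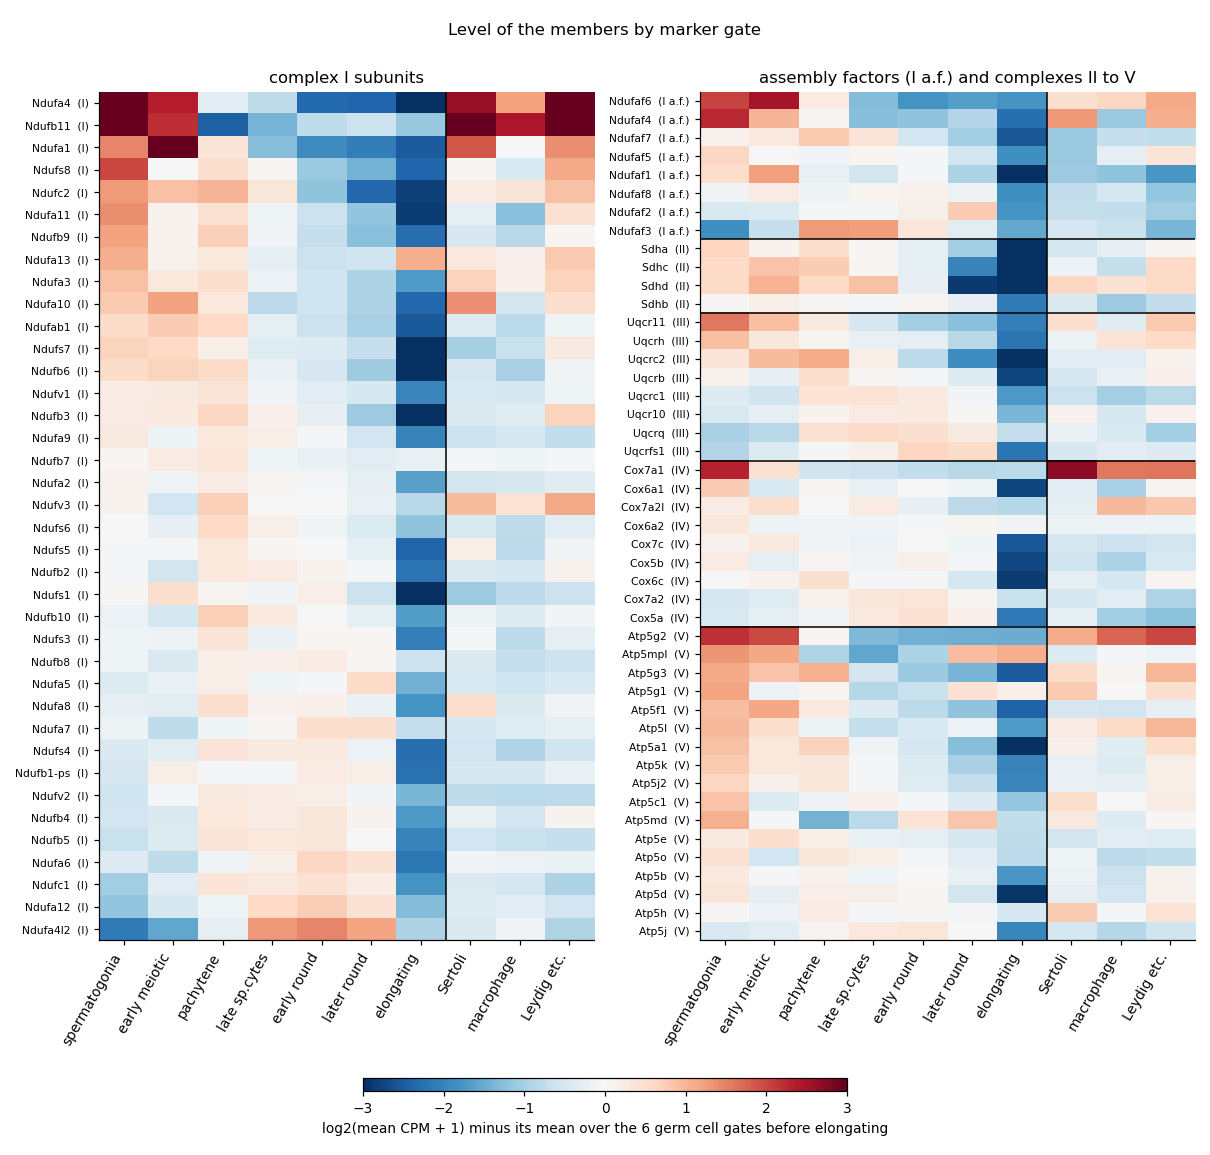
Level of the members reported here (rows, complex in parentheses, a.f. for assembly factor) in each marker gate (columns) as log2(mean CPM + 1) minus its mean over the 6 germ cell gates before elongating, red for higher and blue for lower. Ndufa4, Ndufb11 and Ndufa1 at the top of the complex I panel have the widest ranges, 5.81, 5.48 and 5.45, and most complex V rows are red in spermatogonia.

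The members with the highest germ cell levels followed different courses within a complex. Cox5a, a nuclear subunit gene of cytochrome c oxidase, had 608 to 741 CPM (median 659) in spermatogonia and 1121 to 1379 CPM (median 1219) in early round spermatids, without overlap. Cox6c, another, had 1152 to 1542 CPM (median 1346) in pachytene spermatocytes and 585 to 767 CPM (median 666) in later round spermatids, so the genes differed in their highest stage. In complex III, Uqcrq had 376 to 569 CPM in spermatogonia and 1218 to 1570 in late spermatocytes, while Uqcrh, the hinge protein gene, had 630 to 816 CPM in spermatogonia and 198 to 224 in later round spermatids. Uqcrc2, a core protein gene and the lowest of complex III, had 220 to 277 CPM in pachytene spermatocytes and 23.2 to 37.3 in later round spermatids. In complex V, Atp5b, the catalytic beta subunit gene, had 635 ± 65.0 CPM in spermatogonia and 442 ± 24.5 in later round spermatids. Atp5e, the epsilon subunit gene, had its highest mean, 908 ± 133 CPM, in early meiotic spermatocytes and Atp5j, the coupling factor gene, 754 ± 39.9 CPM in early round spermatids. Complex II was split, since the iron-sulfur subunit gene Sdhb had 168 CPM in spermatogonia and 138 in later round spermatids, where the membrane anchor genes Sdhc and Sdhd were at 14.9 ± 2.02 and 6.92 ± 0.776 CPM.

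Neighbouring gates were compared gene by gene, within libraries, with edgeR's quasi-likelihood test over all genes and Benjamini-Hochberg adjustment, a call being an adjusted p under 0.05. Most genes are called in either direction between these gates, so the members' counts stand beside the share of all features called in the same direction. Changes are given in parentheses as the log2 change with its SE and adjusted p, and rest on TMM scaling. With scaling by total UMIs the median of all features moved from -0.02 to -0.41 for pachytene against early meiotic spermatocytes, from -0.07 to -0.28 for later against early round spermatids and from -0.20 to -1.22 for elongating against later round spermatids.

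From spermatogonia to early meiotic spermatocytes most ATP synthase genes fell. Of the 17 complex V members 14 were lower and 2 higher. Over all 84 members tested, 26 were higher (34.2% of all 11425 features) and 40 lower (35.7% of all features), with a median log2 change of -0.08 against 0.03 for all features. Atp5g1, a gene for subunit c of the membrane ring, fell from 363 to 704 CPM (median 502) to 140 to 289 CPM (median 207), without overlap (-1.37, SE 0.08, adjusted p = 2.02e-22). Atp5c1, the gamma subunit gene of the rotor, fell from between 386 and 480 to between 133 and 228 CPM (-1.33, SE 0.08, adjusted p = 5.90e-22). In complex I the iron-sulfur subunit gene Ndufs8 fell from a median of 227 to 44.4 CPM (-2.10, SE 0.11, adjusted p = 1.22e-25), and Ndufc1 rose from 320 to 518 (0.70, SE 0.07, adjusted p = 1.65e-13). Among assembly factor genes, Ndufaf3 rose by 1.19 (SE 0.11, adjusted p = 3.65e-15) and Ndufaf1 by 0.72 (SE 0.14, adjusted p = 1.29e-05). DESeq2, fitted without edgeR's filter on low counts, called 16 members higher (13.5% of all 22600 features) and 40 lower (18.6% of all features). These shares are over more features than those of edgeR and are not comparable with them. Without HFD replicate 1 edgeR called 17 higher (32.4% of all features).

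At the pachytene stage most members rose. Of 83 members tested 60 were higher (42.0% of all 11401 features) and 12 lower (42.1% of all features), and the members' median was 0.73 against -0.02. Complex I had 32 of 39 members higher and 4 lower, complex III 6 of 8 higher, complex IV 5 of 7 and complex V 11 of 17, with 5 lower. These counts rest on TMM scaling. The summed CPM of complex V, which is scaled by total UMIs, changed by -0.13 ± 0.11 within libraries and was higher in 0 of 6. With scaling by total UMIs 51 members were higher (32.7% of all features) and 22 lower (52.1% of all features), with a median of 0.34. The largest rise was that of Ndufaf3, from 145 to 244 CPM (median 188) to 611 to 983 CPM (median 730; 2.35, SE 0.10, adjusted p = 1.12e-12). Uqcrq rose from a median of 494 to 1266 CPM (1.68, SE 0.10, adjusted p = 3.88e-11), and Ndufv3, a small subunit gene of the NADH-oxidizing module, from 41.2 to 115 (1.76, SE 0.14, adjusted p = 1.52e-09). The largest falls were those of the X-linked pair, Ndufa4 and the assembly factor gene Ndufaf6, which went from a median of 23.6 to 4.39 CPM (-2.10, SE 0.21, adjusted p = 4.41e-08). Among the members with a promoter window, the YY1 letters were in 8 of the 50 that were higher and 0 of the 9 that were lower, and the NRF1 letters in 7 and 3 of them.

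The X-linked subunit genes, both of the membrane arm of complex I, took different courses before the X chromosome is silenced. Ndufa1 rose from 113 to 172 CPM (median 139) in spermatogonia to 387 to 678 CPM (median 524) in early meiotic spermatocytes (1.92, SE 0.08, adjusted p = 1.86e-29), higher in 6 of 6 libraries. It then fell to 48.4 to 87.0 CPM (median 64.8) in pachytene spermatocytes (-2.62, SE 0.10, adjusted p = 4.81e-13) and to 13.4 to 28.7 CPM in late spermatocytes (-1.71, SE 0.11, adjusted p = 5.24e-11). Ndufb11 had 96.0 to 138 CPM in spermatogonia, 48.0 to 91.6 CPM (median 57.1) in early meiotic spermatocytes and 0.607 to 3.80 CPM (median 1.23) in pachytene spermatocytes, the last step on 484 and 70 UMIs (-5.24, SE 0.29, adjusted p = 1.73e-11). The median of all X-linked genes at that step was -5.18. Ndufb11 rose again in late spermatocytes (1.65, SE 0.29, adjusted p = 3.92e-05) and early round spermatids (0.89, SE 0.23, adjusted p = 0.00258), where 80.2% and 65.7% of X-linked genes were also higher, but it had only 7.74 to 8.94 CPM in later round spermatids. Ndufa1 had a median of 11.7 CPM there.

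Ndufa4 was exchanged for its paralog Ndufa4l2 through meiosis. Ndufa4 carries a complex I name and was later found with complex IV, and Ndufa4l2 is known in other tissues as a gene induced by hypoxia. Ndufa4 had 394 to 560 CPM (median 486) in spermatogonia, fell to 199 to 265 CPM in early meiotic and 24.5 to 41.6 CPM (median 35.5) in pachytene spermatocytes (-2.34, SE 0.11, adjusted p = 2.53e-12 at the last step), and then to 5.81 to 9.65 CPM in early round spermatids (-1.54, SE 0.15, adjusted p = 6.17e-08 against late spermatocytes). Ndufa4l2 had 8.88 to 28.3 CPM (median 11.4) in spermatogonia, rose from 11.6 to 32.1 CPM in early meiotic to 38.2 to 72.6 in pachytene spermatocytes (1.77, SE 0.17, adjusted p = 3.66e-08) and to 127 to 191 in late spermatocytes (1.68, SE 0.07, adjusted p = 1.17e-13), and had 143 to 217 in early round spermatids. Neither gene's range in spermatogonia overlapped its range in early round spermatids. Of the UMIs of both genes, Ndufa4 held 97.0 ± 1.75% in spermatogonia, 91.4 ± 3.43% in early meiotic, 39.4 ± 8.06% in pachytene and 13.5 ± 4.15% in late spermatocytes, and 4.15 ± 0.756% in early round spermatids (SD, n = 6). The mean sum of both was 498 CPM in spermatogonia, 87.5 in pachytene spermatocytes and 190 in early round spermatids.

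The 3 subunit c genes, which encode the same mature protein, also changed their shares. Atp5g1, Atp5g2 and Atp5g3 held 43.5 ± 5.41%, 37.5 ± 3.27% and 19.0 ± 2.56% of their summed UMIs in spermatogonia. In pachytene spermatocytes Atp5g3 held 38.9 ± 4.92%, and in later round spermatids Atp5g1 held 81.1 ± 2.55%. The level of Atp5g1 rose from 116 to 172 CPM (median 145) in early round to 262 to 358 CPM (median 319) in later round spermatids (1.32, SE 0.05, adjusted p = 4.84e-21). Atp5g3 fell from 181 to 237 CPM in pachytene to 60.3 to 76.2 in late spermatocytes (-1.58, SE 0.05, adjusted p = 4.14e-15). The mean sum of the family was 1184 CPM in spermatogonia, 226 in early round and 385 in later round spermatids.

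The Cox6a and Cox7a families, subunits of complex IV, kept their main gene. Cox6a2, the heart and muscle form, had 0 UMIs in early meiotic spermatocytes, where 3 UMIs would be 0.425 CPM, and 17 in later round spermatids, against 1333 and 24393 UMIs of Cox6a1. Cox7a2 held 75.1 ± 2.79% of Cox7a UMIs in spermatogonia and 90.2 ± 0.930% in later round spermatids, with Cox7a2l, a factor of respiratory supercomplexes, at 24.0 ± 2.56% and 9.79 ± 0.929%. Cox7a1, the muscle form, fell from 4.44 to 9.61 CPM in spermatogonia to 0 to 2.59 in early meiotic spermatocytes on 56 and 11 UMIs (-2.33, SE 0.47, adjusted p = 1.93e-05).

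**Figure D3:**
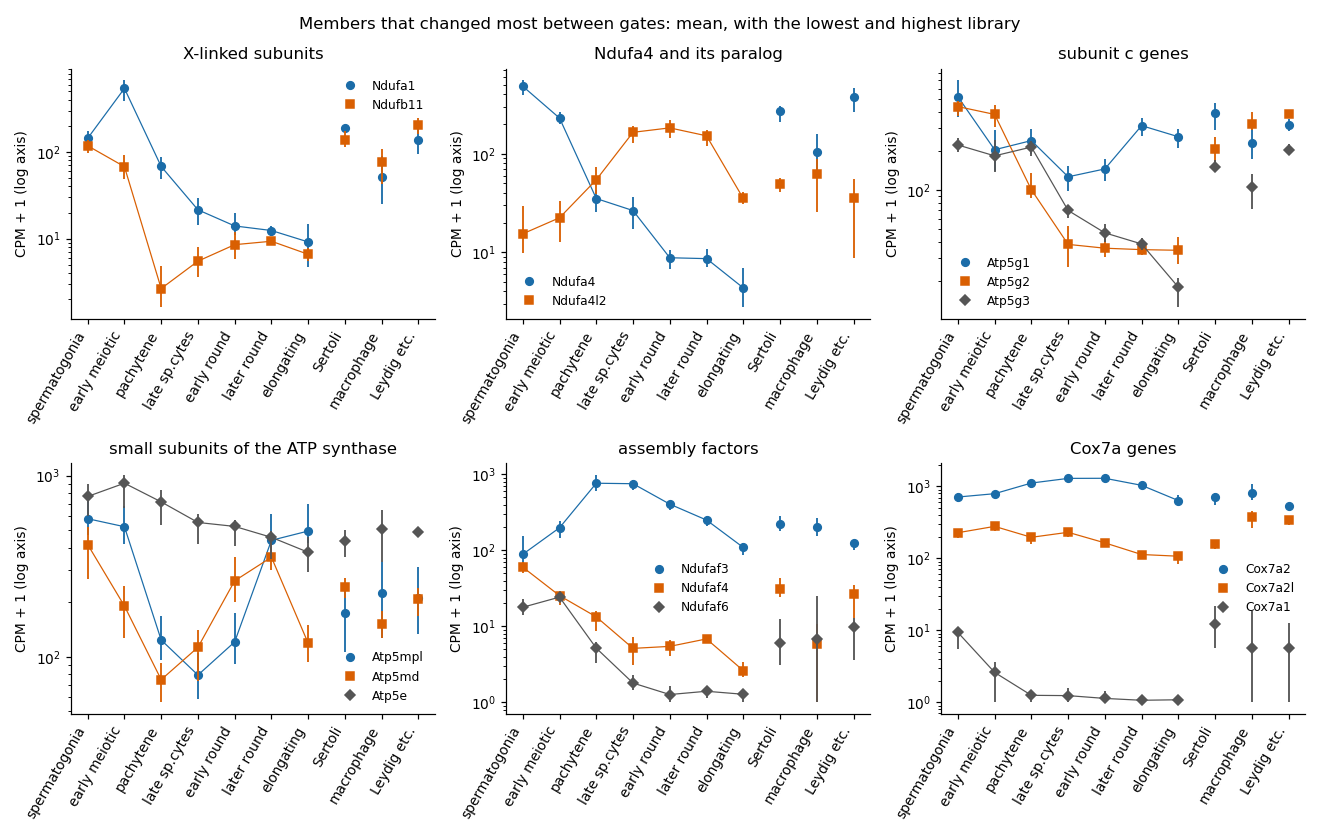
Mean CPM + 1 on a log axis by marker gate for members that changed most between gates and for isoforms, with vertical lines from the lowest to the highest library and lines joining the germ cell gates. Ndufa4 and Ndufa4l2 cross at the pachytene gate (34.1 and 53.4 CPM), and Atp5mpl has 78.4 CPM in late spermatocytes and 439 in later round spermatids.

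From pachytene to late spermatocytes more members fell than rose. Of 83 tested 17 were higher (37.7% of all 14537 features) and 48 lower (37.8% of all features), with a median of -0.25 against 0.03. In complex I 24 of 39 were lower and in complex V 12 of 17. Among assembly factor genes, Ndufaf4 fell from between 7.61 and 15.1 to between 2.10 and 6.26 CPM (-1.60, SE 0.21, adjusted p = 1.32e-06) and Ndufaf6 to 0.467 to 1.27 CPM (-2.31, SE 0.31, adjusted p = 1.26e-06), while Ndufaf3 was at 628 to 834 CPM. Of the members that rose, the complex I gene Ndufa12 went from between 337 and 461 to between 591 and 679 CPM (0.77, SE 0.06, adjusted p = 3.25e-10).

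Between late spermatocytes and early round spermatids similar numbers rose and fell. Of 82 members tested 32 were higher (34.0% of all 13200 features) and 30 lower (39.8% of all features), with a median of 0.02 against -0.09. The complex I gene Ndufc2 fell from 131 to 166 CPM (median 153) to 43.5 to 56.7 CPM (median 49.6; -1.51, SE 0.07, adjusted p = 8.06e-12), while Ndufc1 was at 822 to 1129 CPM in early round spermatids. Sdhd fell from a median of 103 to 46.9 CPM (-1.06, SE 0.07, adjusted p = 1.33e-09) and Ndufs8 from 56.4 to 25.3 (-1.11, SE 0.08, adjusted p = 1.67e-09). Ndufaf1 rose from a median of 14.9 to 21.9 CPM (0.65, SE 0.11, adjusted p = 3.99e-05).

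In round spermatids Atp5mpl and Atp5md, which encode small membrane subunits of the ATP synthase, rose, and complex II fell at the later round step. Of the 17 complex V members 7 were higher and 7 lower in early round spermatids, and 5 higher and 7 lower in later round spermatids. Atp5md had 267 to 521 CPM in spermatogonia, 55.2 to 91.9 in pachytene and 72.5 to 139 in late spermatocytes (0.65, SE 0.07, adjusted p = 2.76e-08), and 201 to 356 in early round spermatids (1.32, SE 0.06, adjusted p = 3.97e-12). Atp5mpl had 472 to 761 CPM in spermatogonia and 57.9 to 104 in late spermatocytes, rose to 90.6 to 174 in early round spermatids (0.69, SE 0.06, adjusted p = 4.53e-08) and to 368 to 616 in later round spermatids (2.09, SE 0.06, adjusted p = 1.68e-23). Both genes were lower in pachytene and late spermatocytes than in spermatogonia and later round spermatids. At the later round step Sdhd fell from between 42.4 and 52.8 to between 5.85 and 7.74 CPM (-2.58, SE 0.08, adjusted p = 2.33e-22) and Sdhc from between 41.2 and 61.3 to between 12.4 and 17.0 (-1.59, SE 0.08, adjusted p = 3.52e-18), and 4 of 4 complex II members were lower. The complex I gene Ndufa5 rose from 283 to 426 CPM (0.81, SE 0.04, adjusted p = 9.61e-18) and the assembly factor gene Ndufaf2 from 215 to 319 (0.79, SE 0.04, adjusted p = 6.62e-17). The counts for this pair of gates, 13 higher (35.4% of all 14358 features) and 40 lower (37.7% of all features) of 82 tested, depended on the scaling. They were 25 and 25 with RLE size factors (38.0% and 33.4% of all features). With total UMIs they were 7 and 67 (31.0% and 49.6% of all features), and leaving out any single library gave 16 to 23 higher and 24 to 31 lower. The members' median was -0.09 against -0.07 for all features.

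In elongating spermatids, whose mRNA is rich in protamine and transition protein transcripts, most members fell. Of 82 tested 20 were higher (35.8% of all 15743 features) and 56 lower (43.4% of all features), with a median of -0.54 against -0.20. With total UMIs 2 members were higher (19.9% of all features) and 76 lower (68.0% of all features). Of the assembly factor genes 7 of 7 tested were lower, as were 27 of 39 complex I members. Cox5b, a complex IV subunit gene, fell from between 453 and 655 to between 71.3 and 98.8 CPM (-1.70, SE 0.07, adjusted p = 2.74e-19). Uqcrfs1, the Rieske iron-sulfur protein gene of complex III, fell from between 273 and 320 to between 36.2 and 49.8 CPM (-1.75, SE 0.07, adjusted p = 1.47e-18), and Ndufs1, a core subunit gene of complex I, from between 43.7 and 62.0 to between 3.96 and 8.58 (-2.09, SE 0.11, adjusted p = 1.24e-16). Ndufa13, a complex I subunit gene also known for a role in cell death, rose from 135 to 180 CPM (median 171) to 438 to 568 CPM (median 543; 2.71, SE 0.06, adjusted p = 8.73e-25), back to near its spermatogonial mean of 527 CPM. Atp5mpl rose by 1.18 (SE 0.06, adjusted p = 8.07e-17), with overlapping ranges of 368 to 616 and 426 to 697 CPM. Ndufb7 rose by 1.12 (SE 0.07, adjusted p = 6.95e-15) on medians of 206 and 214 CPM and Atp5g2 by 1.00 (SE 0.09, adjusted p = 5.28e-11) on medians of 34.3 and 32.5, so these are rises relative to other genes. With total UMIs the changes of Ndufb7 and Atp5g2 were 0.11 and -0.02.

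The mitochondrially encoded mRNAs went down through late meiosis and the round spermatid gates, and the nuclear members went down far less. Their summed level was 57121 to 78339 CPM (median 64804) in spermatogonia, 18580 to 41551 CPM in late spermatocytes, 10121 to 12726 in early round and 2374 to 5342 CPM (median 2963) in later round spermatids. Between spermatogonia and later round spermatids the mean log2 change within libraries was -4.42 ± 0.47, a 21.4-fold decrease, against -0.36 ± 0.07, a 1.28-fold decrease, for the summed members. By the tests of single genes 12 of 13 mitochondrial mRNAs were lower in late than in pachytene spermatocytes (37.8% of all features), 13 of 13 in early round (39.8% of all features) and 13 of 13 in later round spermatids (37.7% of all features). At the pachytene stage 3 were lower (42.1% of all features) and 10 were not called. In elongating spermatids 9 were higher on TMM scaling (35.8% of all features), which is a rise relative to other genes, since their summed level went from 2374 to 5342 CPM (median 2963) to 1243 to 6801 CPM (median 1633). The sum was lower in elongating spermatids in every library except LFD replicate 3, where it went from 5342 to 6801 CPM. mt-Cytb, the mitochondrially encoded subunit of complex III, fell from a median of 3440 to 948 CPM in late spermatocytes (-1.83, SE 0.11, adjusted p = 9.95e-12), while mt-Co1 of complex IV was not called there (-0.20, SE 0.10, adjusted p = 0.0872). In later round spermatids mt-Nd1 of complex I fell by 1.79 (SE 0.08, adjusted p = 2.81e-19).

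The log2 ratio of member UMIs to mitochondrial mRNA UMIs was -1.33 ± 0.28 in spermatogonia (SD, n = 6), -1.46 ± 0.30 in early meiotic, -0.78 ± 0.87 in pachytene and -0.20 ± 0.54 in late spermatocytes, 1.13 ± 0.21 in early round and 2.73 ± 0.44 in later round spermatids. The value itself depends on how well each kind of mRNA is captured, so only its change between gates is read. The ranges of spermatogonia (-1.72 to -1.08), early round (0.78 to 1.31) and later round spermatids (1.95 to 3.20) did not overlap. With gates at 2 times the marker share the means were 0.56 in late spermatocytes and 4.98 in later round spermatids, and as a mean over barcodes they were -1.89, -1.66 and 1.99 in pachytene and late spermatocytes and later round spermatids. Pachytene libraries were spread over -2.26 to 0.15, with LFD replicate 3 lowest and a mean of -0.49 without it. That library had the fewest UMIs of the 6 and 117550 CPM of mitochondrial mRNA in the pachytene gate, where the other 5 had 27180 to 54640. In its pachytene gate were 132 barcodes with a median of 5857 UMIs. The part of this depth in the ratio was not tested. In elongating spermatids the ratio was 2.09 ± 0.89, with 0.39 in LFD replicate 3.

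The same direction was seen within each complex that has subunits from both genomes. From spermatogonia to later round spermatids the ratio went from -0.12 ± 0.36 to 4.23 ± 0.50 for complex I, from -0.78 ± 0.29 to 4.05 ± 0.42 for complex III, from -3.05 ± 0.27 to 1.19 ± 0.45 for complex IV and from -0.64 ± 0.25 to 2.94 ± 0.44 for complex V. In complex IV the 3 mitochondrial mRNAs had 39072 ± 4690 and 2026 ± 657 CPM in these gates, and the 9 nuclear members 4696 ± 445 and 4457 ± 230. Nuclear subunit genes outside the symbol rule, such as Cox4i1 and Cox8c, are not in this ratio.

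**Figure D4:**
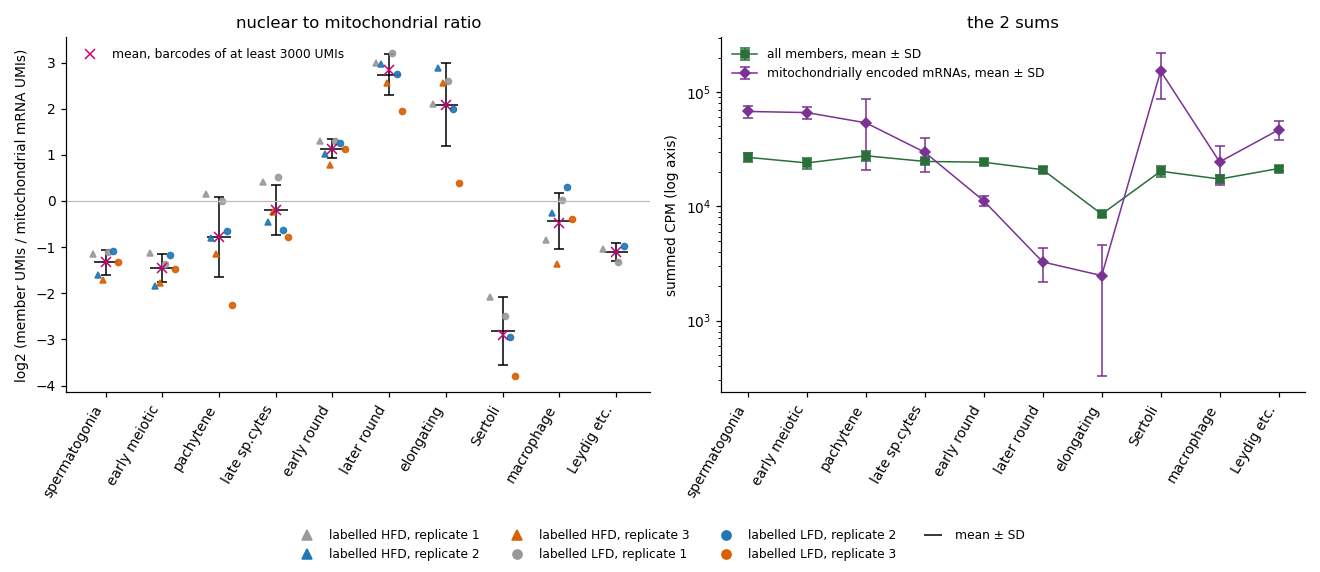
Left, log2 ratio of member to mitochondrial mRNA UMIs by marker gate, with 1 point per library, black bars for mean ± SD and crosses for the mean over barcodes of at least 3000 UMIs. Right, both sums in CPM on a log axis (mean ± SD), where the mitochondrial sum drops from 67691 CPM in spermatogonia to 3263 in later round spermatids and the members from 26856 to 20931.

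Other genes of the pathway, 42 that the symbol pattern does not take in, were followed as a list. At the pachytene stage 19 of 40 tested were higher (42.0% of all features) and 16 lower (42.1% of all features), with a median of 0.15. In late spermatocytes 8 of 40 were higher (37.7% of all features) and 27 lower (37.8% of all features), with a median of -0.47. Testis isoforms rose among them while their somatic forms fell. Cox8c, the testis form of a complex IV subunit, rose from 554 to 901 CPM (median 700) in early meiotic to 2843 to 3752 CPM (median 3521) in pachytene spermatocytes (2.67, SE 0.12, adjusted p = 1.27e-12). Cox8a, its somatic form, fell from 374 to 679 CPM (median 565) in spermatogonia to 33.5 to 97.7 CPM (median 46.9) in early meiotic spermatocytes (-3.35, SE 0.10, adjusted p = 2.59e-37). At the pachytene stage Cyct, testis cytochrome c, rose to a median of 582 CPM (2.40, SE 0.10, adjusted p = 1.03e-12) and Cycs, the somatic form, fell to 11.5 (-2.98, SE 0.12, adjusted p = 6.69e-13).

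Of 9 regulator genes of mitochondrial biogenesis 7 were tested at the pachytene stage, of which 1 was higher (42.0% of all features) and 5 lower (42.1% of all features). Nrf1 and Yy1, given because their motif letters were searched, were chosen after their values were seen. Nrf1 fell from a median of 49.2 to 16.8 CPM (-1.26, SE 0.12, adjusted p = 3.20e-08), and Yy1 had medians of 153 and 121 and was not called (-0.02, SE 0.08, adjusted p = 0.825). Tfam, which packages mitochondrial DNA and is needed for its transcription, had 22.3 to 37.5 CPM in later round spermatids and 963 to 1469 in elongating spermatids (6.39, SE 0.08, adjusted p = 1.68e-30), higher in 6 of 6 libraries. This step for Tfam is not the one counted above, and the other regulators are not given there. UMI counts do not tell transcript forms of a gene apart, and Tfam protein was not measured.

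The somatic gates were small and held much free RNA of germ cells. The Sertoli gate had 520 barcodes and was compared in 4 libraries, and the macrophage gate had 251. The upper share of free RNA was 43.3 to 67.3% in the 4 libraries compared in the Sertoli gate and 50.5 to 60.5% in the macrophage gate. Both this share and the subtraction below use the barcodes in no gate with under 3000 UMIs, which may hold cells. The low limit on elongating markers that applied to the earlier germ cell gates did not apply here, so the shares of the 2 kinds of gate are not comparable. Against spermatogonia 17 of 83 members were higher (36.5% of all 11347 features) and 49 lower (38.7% of all features) in the Sertoli gate, and 10 of 81 higher (35.9% of all 8601 features) and 47 lower (41.9% of all features) in the macrophage gate. With free RNA subtracted, 6 members were higher in the Sertoli gate (24.4% of all features). Complex V members were lower in 14 of 17 and 13 of 17 cases. Ndufa11, a complex I subunit gene, had medians of 507 CPM in spermatogonia, 161 in the Sertoli gate (-1.79, SE 0.14, adjusted p = 7.03e-10) and 73.0 in the macrophage gate (-2.44, SE 0.17, adjusted p = 8.65e-46). Ndufs8 was lower in both as well (-1.98, SE 0.16, adjusted p = 1.30e-09 and -2.19, SE 0.22, adjusted p = 7.34e-22).

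The rises in the somatic gates did not all hold once free RNA was subtracted. Ndufaf3 had a log2 difference of 1.47, SE 0.16, adjusted p = 8.30e-08 in the Sertoli gate, and of -1.40 after subtraction. Ndufa12 had 0.91, SE 0.12, adjusted p = 1.64e-06, and -2.31 after subtraction, and Uqcrq had 0.82, SE 0.11, adjusted p = 2.15e-06, and -0.63. For these 3 genes no direction can be given for Sertoli cells. The mitochondrial mRNAs went opposite ways, with 13 of 13 higher in the Sertoli gate (36.5% of all features) and 12 of 12 lower in the macrophage gate (41.9% of all features). No values with free RNA subtracted are given for them. Their sum was 93460 to 243971 CPM in the Sertoli gate, whose barcodes had a median of 1956 UMIs against 11322 in spermatogonia. The log2 ratio was -2.83 ± 0.74 in the Sertoli gate (n = 4) and -0.43 ± 0.61 in the macrophage gate (n = 6). Over barcodes of at least 3000 UMIs the Sertoli ratio was -2.91 ± 0.33 (n = 3).

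The diet comparison asked whether a short HFD changed these mRNAs in the testis. No member was called with edgeR or with DESeq2 in the whole testis or in any of the 8 gates tested, and with edgeR no other feature was called either (0% of 20727 features in the whole testis). At an unadjusted p under 0.05 edgeR gave 3 of 84 members in the whole testis (2.27% of all features) and DESeq2 4 (1.56% of all features). In the gates edgeR gave 1 in spermatogonia, 0 in early meiotic, 0 in pachytene and 1 in late spermatocytes, 12 in early round, 3 in later round and 1 in elongating spermatids and 6 in the macrophage gate. Of all features, 6.13% had such a p in early round spermatids, 3.81% in the macrophage gate and between 1.80 and 4.56% in the other gates. The 12 members of early round spermatids, of 82 tested, were all lower. In the same order DESeq2 gave 0, 0, 0, 0, 9, 2, 0 and 1 members, with 1.43% of all features in early round spermatids. The DESeq2 shares are over features without edgeR's filter on low counts and are not comparable with the edgeR shares.

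In the whole testis, where fewer cells of a type and less RNA per cell cannot be told apart, the 3 members with the smallest p had similar differences. Atp5g3 had 79.5, 96.2 and 96.8 CPM in the libraries labelled HFD and 71.0, 83.8 and 58.3 in those labelled LFD (log2 difference 0.41, SE 0.16, adjusted p = 0.986, edgeR). Ndufb6, a complex I subunit gene, had 96.4, 123 and 118 CPM under the HFD label and 90.2, 103 and 74.2 under the LFD label (0.39, SE 0.16, adjusted p = 0.986), and Ndufc2 had 99.9, 127 and 123 and 84.5, 115 and 73.1 (0.42, SE 0.18, adjusted p = 0.986). The diets overlapped for each of the 3 genes.

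The summed members gave 20903, 24053 and 20256 CPM in the whole testis of the libraries labelled HFD and 21122, 23040 and 20123 in those labelled LFD. In early round spermatids the sums were 25038, 24754 and 21802 against 25801, 24606 and 24093, and in later round spermatids 21770, 21273 and 18756 against 21791, 21396 and 20598. HFD replicate 3 was lowest in both round spermatid gates. The members' median log2 difference was 0.08 in the whole testis, -0.09 in early round and -0.07 in later round spermatids, beside 0.02, -0.01 and 0.00 for all features.

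The count of 0 depended on the replicate 1 libraries, which differ from the rest in haemoglobin mRNA. Leaving out HFD replicate 1 alone leaves LFD replicate 1 as the only library low in haemoglobin mRNA, so that fit partly mixes diet with this difference. Without HFD replicate 1, 26 of 82 members were lower under the HFD label in early round spermatids (5.69% of all features) and 11 in later round spermatids (2.54% of all features). Without both replicate 1 libraries 16 (3.94% of all features) and 21 (7.34% of all features) were lower there, as were 4 in pachytene spermatocytes (2.59% of all features) and 1 in late spermatocytes (1.11% of all features). Leaving out any other single library gave 0 called members in each gate and in the whole testis. Ndufa11 and Ndufv1, complex I genes chosen after their values were seen, are examples. Ndufa11 differed in early round spermatids by -0.43 with all libraries (SE 0.15, edgeR adjusted p = 0.737), by -0.70 (adjusted p = 0.00105) without HFD replicate 1 and by -0.66 (adjusted p = 0.00455) without both. Ndufv1 had 138, 90.8 and 101 CPM under the HFD label and 132, 142 and 134 under the LFD label in early round spermatids, where HFD replicate 1 lay with the LFD libraries. In the test of whether the diet difference itself differed between pachytene and later round spermatids, 0 of 83 members were called higher and 0 lower with edgeR, 0 at an unadjusted p under 0.05, and DESeq2 called 0. The count was 2 higher without LFD replicate 1 (4.98% of all features) and 2 without both replicate 1 libraries (4.50% of all features).

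**Figure D5:**
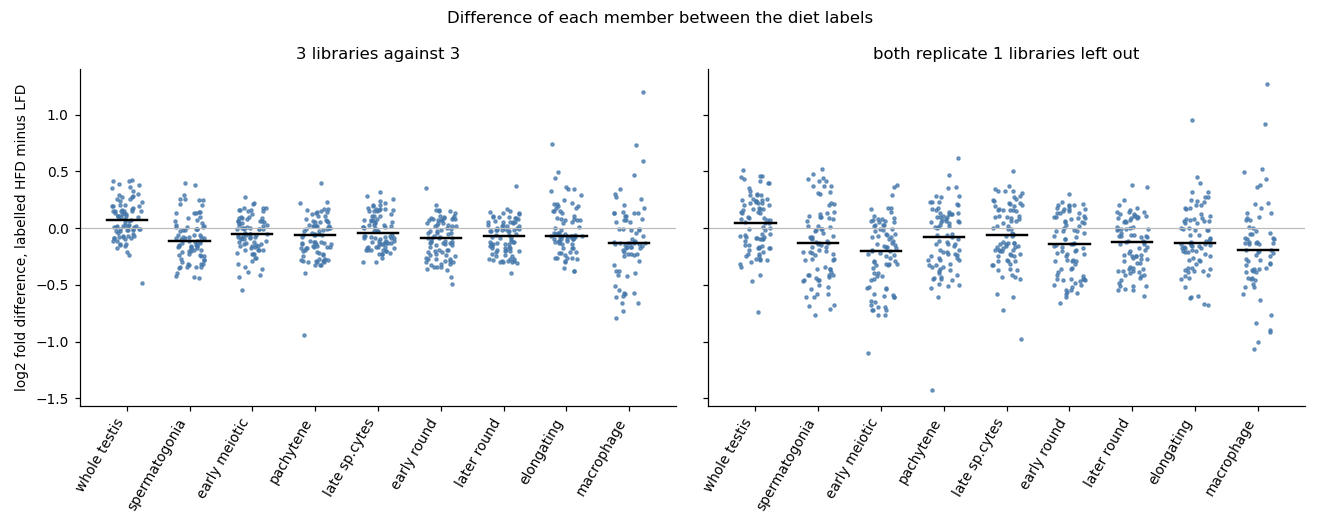
Log2 difference of each member between the libraries labelled HFD and LFD in the whole testis and in each gate (1 point per member, black line for the median), with all libraries on the left and without both replicate 1 libraries on the right. On the left the medians lie between -0.13 in the macrophage gate and 0.08 in the whole testis, and no member passed the adjusted threshold.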

How the data were processed

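Testes of 3 mice per diet were dissociated and profiled by droplet 3′ single-cell RNA-seq. The authors aligned and counted reads with Cell Ranger 6.0.1 on mm10, and the deposited values are filtered UMI counts per gene and barcode, not normalized. The 85 members and all gene lists were chosen with earlier results of these data known. Barcodes were assigned to a gate by the share of their UMIs on that gate's marker list, no doublet caller was run, and free RNA was left in. Barcodes over more than 1 germ cell cut went to the later stage for some pairs of gates, and for other pairs they were left out. Barcodes over more than 1 somatic cut were left out. So were those over a somatic cut and the elongating, later round or early meiotic cut. Counts were summed per library and gate (gates of at least 20 barcodes). Sums were tested with edgeR 4.0.16 (quasi-likelihood test, TMM, its default filter; two-sided, Benjamini-Hochberg over all genes tested; R 4.3.3), with the library as a term for gates and HFD minus LFD for diet, and with DESeq2 1.42.0 as an alternative. The steps were tested on simulated counts. Members named in the text are the 3 highest and the lowest of each complex, up to 4 called members with the largest rise and fall per pair of gates with the same sign in every library, X-linked members, isoforms and the 3 smallest diet p-values. A complex I member that this rule names is counted but not reported here by name. Gene positions are from GENCODE vM21 and promoters from RefSeq (GRCm38.p6). Single depths range from 39196921 to 95845514 UMIs, and counts carry counting error besides the spread between mice. 5 members (Ndufb2, Ndufb8, Ndufb9, Atp5g2 and Atp5o) share exon bases with another gene of the same strand, and Ndufb1-ps is not annotated as protein coding.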

Additional observations from a re-analysis of the deposited data

Results flagged for a closer look

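Among 49 sets of 6 libraries, 2 held a library far from the others, where chance gives about 1 in 20. In later round spermatids the summed level of complex III was 2205 CPM in HFD replicate 3, the lowest of the 6, and 2494 to 2644 in the others. In elongating spermatids the log2 ratio of member to mitochondrial mRNA UMIs was 0.39 in LFD replicate 3 and 2.00 to 2.88 in the others. LFD replicate 3 had 6801 CPM of mitochondrial mRNA in that gate, while its summed members had 8939 CPM, within the range of 7932 to 9145 over the 6 libraries.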

How the results depend on the processing

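The members named for a change kept their direction under every alternative run, apart from 5 reversed values, and 4 further values kept their direction and were no longer called. With total UMIs Atp5g2 changed by -0.02 in elongating spermatids. With free RNA subtracted the Sertoli gate gave -1.40 for Ndufaf3, -2.31 for Ndufa12 and -0.63 for Uqcrq, and the macrophage gate -0.09 for Ndufa12. Counts of called members stayed within 1.5 times the reported count in 510 cases and moved in 44.

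Higher members in early meiotic spermatocytes were 16 with DESeq2, 15 without both replicate 1 libraries, 17 without the top 10% of barcodes and 17 to 30 when a library was left out. Lower members in pachytene spermatocytes were 22 with total UMIs. Higher members in late spermatocytes were 26 without both replicate 1 libraries and 32 with the gate cut times 2. In later round spermatids 25 were higher and 25 lower with RLE size factors, 7 and 67 with total UMIs, 34 and 21 with no filter, 21 and 22 with DESeq2, 28 and 23 with the cut times 2, 25 and 25 without the top 10% of barcodes, 28 and 23 with free RNA subtracted and 26 and 11 with all gates in 1 fit, and leaving out a library gave 16 to 23 and 24 to 31. In elongating spermatids 2 were higher with total UMIs. In the Sertoli gate 10 were higher without the top 10% of barcodes and 6 with free RNA subtracted, and in the macrophage gate 6 with no filter and 3 with free RNA subtracted.

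For the diets, leaving out both replicate 1 libraries gave 4 lower members in pachytene and 1 in late spermatocytes, 16 in early round and 21 in later round spermatids, and 2 higher in the comparison of diet differences. Leaving out 1 library gave 0 to 26 lower in early round, 0 to 11 in later round spermatids and 0 to 2 higher in the comparison of diet differences. Same-numbered libraries of the diets had correlations of 0.57, -0.04 and 0.13 over 10492 genes, so the numbers were not taken to pair them. With the replicate number as a replicate block 0 members were called in every diet comparison, and over all features of the whole testis 1 was higher and 30 lower.

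The mean over barcodes moved the ratio to -1.89 in pachytene and -1.66 in late spermatocytes and 1.99 in later round spermatids, and the summed level to 25069 and 23027 CPM in pachytene and late spermatocytes. The cut times 2 moved the ratio to 0.56 in late spermatocytes and 4.98 in later round spermatids, and the level to 19454 CPM in later round and 6513 in elongating spermatids. Scaling without the elongating markers and mitochondrial genes gave 10952 CPM in elongating spermatids. The causes were not tested. Subtracting free RNA and leaving out both replicate 1 libraries were chosen after seeing the data. The planned subtraction of free RNA from the barcodes of lowest UMIs was not run, since too few such barcodes exist.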

Other observations

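The gate of Leydig, peritubular and stromal markers, with 151 barcodes, gave values in 3 libraries and entered no comparison. Its summed members had 21437 ± 1036 CPM (SD, n = 3), with 8706 ± 417 for complex I and 5925 ± 314 for complex V, and the log2 ratio to the mitochondrial mRNAs was -1.11 ± 0.19. Ndufb11, which had 0.607 to 3.80 CPM in pachytene spermatocytes, had 159 to 247 there. Atp5g2 had 360 to 409 CPM there and 31.1 to 36.7 in later round spermatids. The upper share of free RNA in these 3 libraries was 26.3 to 36.0%.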
